A study of Mus musculus with 15 samples.

Results

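Fc receptors are the proteins with which immune cells bind the constant part of an antibody. The 6 genes described here are Fcgr1, Fcgr2b, Fcgr3 and Fcgr4, which encode the mouse receptors for IgG, Fcer1g, which encodes the signalling chain of the activating receptors, and Fcgrt, which encodes the neonatal Fc receptor. They were chosen as a named family, 6 of the 32372 genes in the count matrix, and all 6 passed the filter on low counts that left 14260 genes to test. The activating receptors encoded by Fcgr1, Fcgr3 and Fcgr4 bind an immune complex at the cell surface and signal through the activation motif of the Fcer1g chain to Src-family kinases and Syk. The receptor encoded by Fcgr2b has no such partner, carries an inhibitory motif in its own tail and recruits phosphatases that oppose this signal. The protein of Fcgrt pairs with beta-2-microglobulin inside endosomes, where it binds IgG and albumin and returns them to the cell surface.

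The cells were microglia enriched with CD45 beads from the cortex and hippocampus of 15 male C57BL/6J mice aged 3.5 months. All mice, controls included, carried the hTfR knock-in, in which the apical domain of the mouse transferrin receptor is the human one. The mice were dosed once, at 10 mg/kg, with ATV:4D9, an antibody to TREM2 on a transferrin receptor-binding Fc, or with the control antibody ATV:RSV. Per the study, ATV:4D9 was built on a human IgG backbone with mutations meant to reduce its binding to Fc receptors. The ATV:RSV mice were sampled at day 1 and the ATV:4D9 mice at day 1, 7, 14 or 28, so that 5 groups of 3 were spread evenly over 3 batches. Days 7, 14 and 28 lacked a same-day control, and the same 3 ATV:RSV mice served each comparison.

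The files held 102043 cells with 5667 to 7596 cells and 32341960 to 70307384 unique molecular identifiers (UMIs, each standing for 1 captured RNA molecule) per mouse. The median cell of an ATV:4D9 mouse at day 1 held 8202 to 8996 UMIs, against 4694 to 6117 in the other 12 mice. The median mitochondrial share of UMIs was 3.96% to 4.50% at day 1 of ATV:4D9, against 3.11% to 3.38% in the ATV:RSV mice. At day 7 this share was 3.49% to 4.04%, also above the ATV:RSV mice, at day 14 3.13% to 3.64% and at day 28 3.25% to 3.62%. All 7 microglia markers were detected in every mouse, at a summed level of 11849 to 13216 CPM at day 1 of ATV:4D9 and 17936 to 19190 CPM in the ATV:RSV mice. Cells with 3 or more of 7 markers of border-associated macrophages numbered 453, and 2 cells held 3 or more of 4 monocyte markers. Of 100747 distinct cell barcodes, 1283 occurred in more than 1 library. Of the deposited clusters, cluster 2 held 5607 to 6597 cells of each ATV:4D9 mouse at day 1 and 74 to 245 cells of each other mouse.

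Of the 6 genes, 4 lie within 276 kb of chromosome 1 in mm10. Fcgr2b is at chr1:170958617-170976547 on the minus strand, Fcgr4 at chr1:171018920-171029761 on the plus strand, Fcgr3 at chr1:171051174-171064935 on the minus strand and Fcer1g at chr1:171229572-171234365 on the minus strand. Fcgr1 is at chr3:96282909-96293969 and Fcgrt at chr7:45092990-45103851, both on the minus strand. All 6 are annotated as protein coding. Because Fcgr2b and Fcgr3 are close relatives, their transcripts were searched for reads that could belong to another gene. Fcgr3 shared 3.58% of its 91-base windows, the read length, with Fcgr2b, and Fcgr2b shared 2.03% with Fcgr3 and other genes. None of the windows in the last 500 bases of any of the 6 genes' transcripts, where this 3′ assay counts most reads, occurred in another gene. The annotated antisense genes over Fcgr2b (Gm38204) and Fcgrt (Gm45669) held 2 and 12 UMIs over all mice.

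The 250 bases before each RefSeq start site were searched for the letters of 3 elements that are known in promoters of myeloid and interferon-responsive genes, on both strands. The interferon-gamma activated site (GAS) was searched as TTCNNNGAA, the core of the interferon-stimulated response element (ISRE) as GAAANNGAA and the core site of the myeloid factor PU.1 as GAGGAA. Among 32851 promoters of the same length, 7.02% held the GAS letters, 7.13% the ISRE core and 23.3% the PU.1 core. The stretches of Fcgr1, Fcgr4 and Fcgr3 are shown because these are the activating receptors, and they moved in different directions. Letters of a match are in capitals, bases of annotated exons are left out, and the sequences are from RefSeq on GRCm38.p6, written 5′ to 3′ on the gene's strand. The RefSeq start of Fcgr3 lies inside the annotated gene given above.
Fcgr1, chr3:96293970-96294219, minus strand: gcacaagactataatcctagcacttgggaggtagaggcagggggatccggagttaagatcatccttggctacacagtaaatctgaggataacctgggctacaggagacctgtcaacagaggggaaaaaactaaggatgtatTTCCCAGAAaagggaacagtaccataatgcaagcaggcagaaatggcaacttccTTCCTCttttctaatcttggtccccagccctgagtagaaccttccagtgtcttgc
Fcgr4, chr1:171018676-171018919, plus strand: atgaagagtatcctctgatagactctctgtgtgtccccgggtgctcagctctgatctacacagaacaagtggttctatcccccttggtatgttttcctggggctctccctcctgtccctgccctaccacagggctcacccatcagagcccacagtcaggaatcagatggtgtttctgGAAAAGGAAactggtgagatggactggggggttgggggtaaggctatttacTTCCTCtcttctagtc
Fcgr3, chr1:171059404-171059626, minus strand: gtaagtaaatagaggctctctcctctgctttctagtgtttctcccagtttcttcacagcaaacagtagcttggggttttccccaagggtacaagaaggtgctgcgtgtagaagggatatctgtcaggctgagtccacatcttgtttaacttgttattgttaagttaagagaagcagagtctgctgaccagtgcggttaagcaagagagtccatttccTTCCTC

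Fcgr1 held 1 GAS match, from 109 to 101 bases before its start site, and Fcgr4 held 1 ISRE core match, from 73 to 65 bases before its start site. Fcgr1, Fcgr3 and Fcgr4 each held 1 PU.1 core match, on the strand opposite to the one printed. None of the 3 sets of letters was found in the 250 bases of Fcgr2b, Fcer1g or Fcgrt. The Fcgr2b stretch lies inside the annotated gene, and 187 of its bases are in annotated exons. These are matches of letters, not measured sites.

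At day 1 the receptor genes moved in opposite directions. Levels are given as CPM, the UMIs of a gene summed over the cells of a mouse and scaled to a fixed library total, and they are compared between groups and not between genes. Fcgr4, Fcgr1 and Fcer1g rose, and Fcgr2b, Fcgr3 and Fcgrt fell. All 6 were called at an adjusted p under 0.05 (limma-voom, Benjamini-Hochberg over all genes tested). At this day 69.2% of all genes tested were called, so the count of 6 is read against a high background, and the sizes and directions are what distinguish the members from each other.

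Fcgr4, an activating receptor of intermediate affinity, rose the most. Its level was 10.1, 9.14 and 10.7 CPM in the ATV:RSV mice and 32.7, 32.8 and 37.8 CPM in the ATV:4D9 mice at day 1. The groups did not overlap, and the treated mice lay far above the controls. The log2 fold change was 1.78 (SE 0.0818, adjusted p = 2.85e-11), a fold of 3.43, and batches 1, 2 and 3 gave log2 differences of 1.69, 1.84 and 1.82.

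Fcgr1, the high-affinity receptor that binds single IgG molecules, was 385, 330 and 356 CPM in the ATV:RSV mice and 509, 443 and 579 CPM in the ATV:4D9 mice at day 1. On the TMM scale used here, every treated mouse was above every control. By library size alone the groups overlapped. Replicate 2 of ATV:4D9 at day 1 held 27132 Fcgr1 UMIs of 67801858, and replicate 1 of ATV:RSV 18818 of 46425480. The log2 fold change of 0.51 (SE 0.0805, adjusted p = 3.66e-05) was the smaller of the 2 rises among the receptors, and it varied between batches more than that of Fcgr4, with differences of 0.40, 0.42 and 0.70.

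Fcer1g, the signalling chain, rose with a narrow spread. It was 2154, 2134 and 2314 CPM in the ATV:RSV mice and 3028, 2947 and 3195 CPM in the ATV:4D9 mice at day 1. The log2 fold change was 0.47 (SE 0.050, adjusted p = 4.34e-07), and the differences within the batches were 0.49, 0.47 and 0.47. The same chain is used by other receptors of myeloid cells, so its level is not that of the IgG receptors alone.

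Fcgr3, the low-affinity activating receptor, fell. It was 1047, 945 and 1030 CPM in the ATV:RSV mice and 430, 378 and 507 CPM in the ATV:4D9 mice at day 1. The highest treated mouse lay far below the lowest control. The log2 fold change was -1.21 (SE 0.0949, adjusted p = 1.34e-08), a level 2.31-fold lower.

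Fcgr2b, the inhibitory receptor, fell by about as much. It was 156, 141 and 155 CPM in the ATV:RSV mice and 62.7, 63.1 and 68.2 CPM in the ATV:4D9 mice at day 1. The treated mice lay close together and well apart from the controls. The log2 fold change was -1.22 (SE 0.0608, adjusted p = 6.59e-11), a level 2.33-fold lower, with differences of -1.32, -1.16 and -1.19 within the batches. Markers of resting microglia were also lower in these mice, with P2ry12 at 712 to 799 CPM against 2149 to 2185 in the controls and Siglech at 499 to 556 against 1206 to 1279 CPM. The part of this shift in the falls of Fcgr3 and Fcgr2b was not tested. With every cell thinned to the same number of UMIs, both genes were still lower at day 1 with no overlap.

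Fcgrt, the neonatal Fc receptor, fell less. It was 83.4, 90.6 and 98.7 CPM in the ATV:RSV mice and 66.9, 65.5 and 68.1 CPM in the ATV:4D9 mice at day 1. The groups did not overlap, and the control mice spread more widely than the treated ones. The log2 fold change was -0.44 (SE 0.0615, adjusted p = 1.00e-05). Scaling by library size alone moved the median of all genes at day 1 from -0.05 to -0.29 on the log2 scale and the split of calls from 4942 higher and 4930 lower to 3690 higher and 6959 lower. Fcgrt then had a log2 fold change of -0.68, and the others were -1.46 for Fcgr2b, -1.45 for Fcgr3, 0.27 for Fcgr1, 0.23 for Fcer1g and 1.54 for Fcgr4. With this scaling all 6 genes kept their direction and their call.

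**Figure D1:**
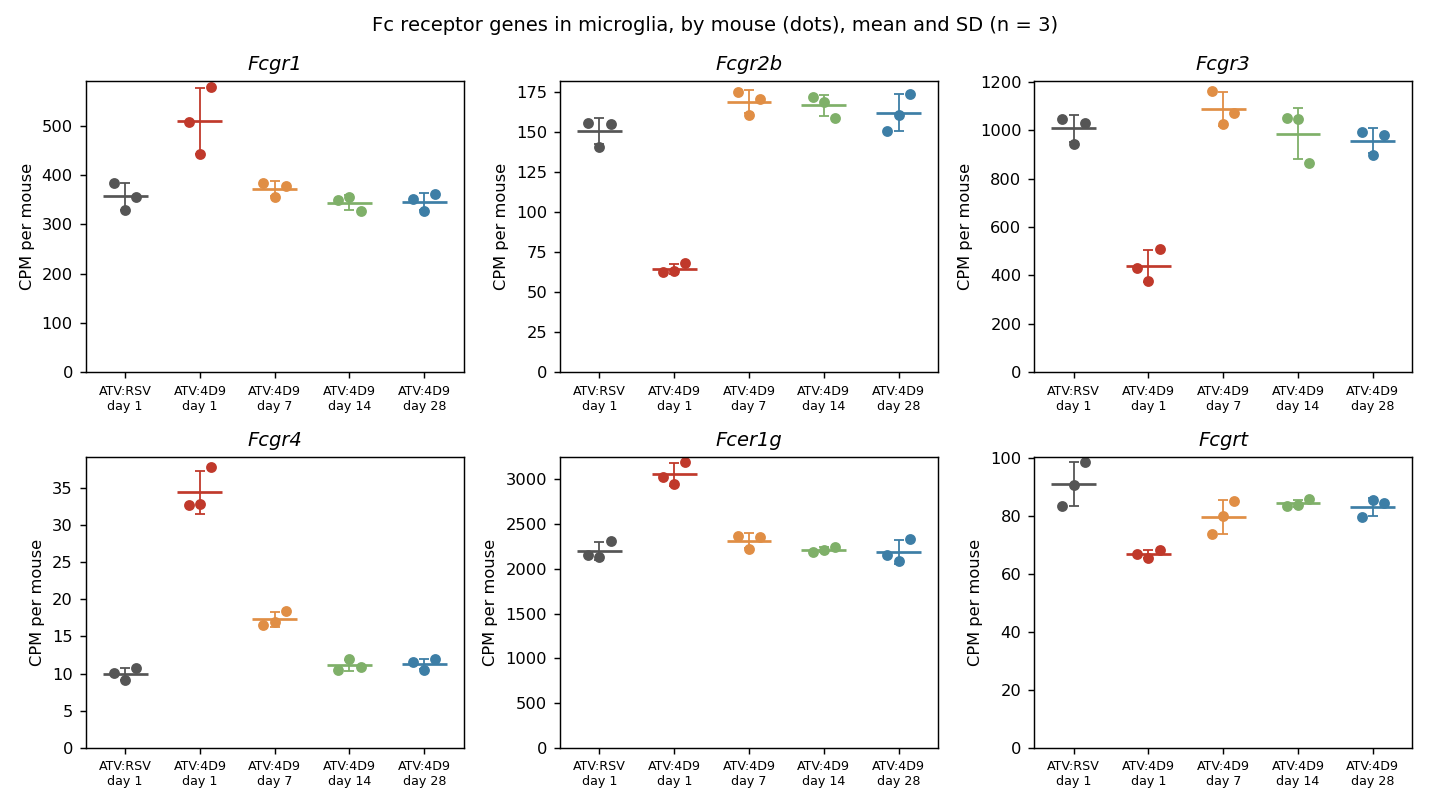
Level of each of the 6 genes in CPM (y axis, from 0) in each of the 15 mice (dots) by group, with the group mean (horizontal line) and SD (bar, n = 3). At day 1 of ATV:4D9 Fcgr1, Fcgr4 and Fcer1g lie above and Fcgr2b, Fcgr3 and Fcgrt below the ATV:RSV mice, with no overlap on this TMM scale. Fcgr4 is still above the ATV:RSV mice at day 7.

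At day 7 Fcgr4 alone of the 6 was called, against 3.98% of all genes tested. It was 16.5, 17 and 18.4 CPM, above all 3 control mice, with a log2 fold change of 0.80 (SE 0.0898, adjusted p = 4.20e-05), a fold of 1.74. The third of these mice also stood apart in its neutrophil markers, at a summed 116 CPM against 3.22 and 6.83 CPM in the other day 7 mice, and without it the log2 fold change of Fcgr4 was 0.74 (adjusted p = 0.000645). Fcgr2b was 175, 161 and 171 CPM, also above the 3 controls, but its log2 fold change of 0.16 (SE 0.0599) had an adjusted p of 0.161. Fcgrt was 73.6, 79.9 and 85.2 CPM and overlapped the controls, with a log2 fold change of -0.19 (SE 0.0620, adjusted p = 0.114). This value was called with batch as a replicate block (adjusted p = 0.0246), with library size alone (adjusted p = 0.0159) and without 1 ATV:RSV mouse, replicate 1 (adjusted p = 0.0388). The log2 fold changes of Fcgr1, Fcgr3 and Fcer1g were 0.06 (SE 0.0812), 0.11 (SE 0.0944) and 0.07 (SE 0.0503), with adjusted p of 0.765, 0.618 and 0.523.

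None of the 6 was called at day 14 or day 28 by limma-voom, at an adjusted p of 0.783 or more, and none by edgeR or DESeq2. Over all genes 0.400% were called at day 14 and 0% at day 28, when 571 genes had an unadjusted p under 0.05. Fcgr2b at day 14 had an unadjusted p under 0.05, with 172, 169 and 159 CPM, above the 3 controls, and a log2 fold change of 0.14 (SE 0.0597, adjusted p = 0.783). Fcgr4 was 10.5, 11.9 and 10.9 CPM at day 14 and 11.5, 10.5 and 11.9 CPM at day 28, and overlapped the controls at both days. Its log2 fold changes were 0.15 (SE 0.0943) and 0.18 (SE 0.0922). Fcgrt had a mean of 84.3 ± 1.19 CPM (SD, n = 3) at day 14 and 83.1 ± 3.17 CPM (SD, n = 3) at day 28, with log2 fold changes of -0.10 (SE 0.0615) and -0.13 (SE 0.0613).

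**Figure D2:**
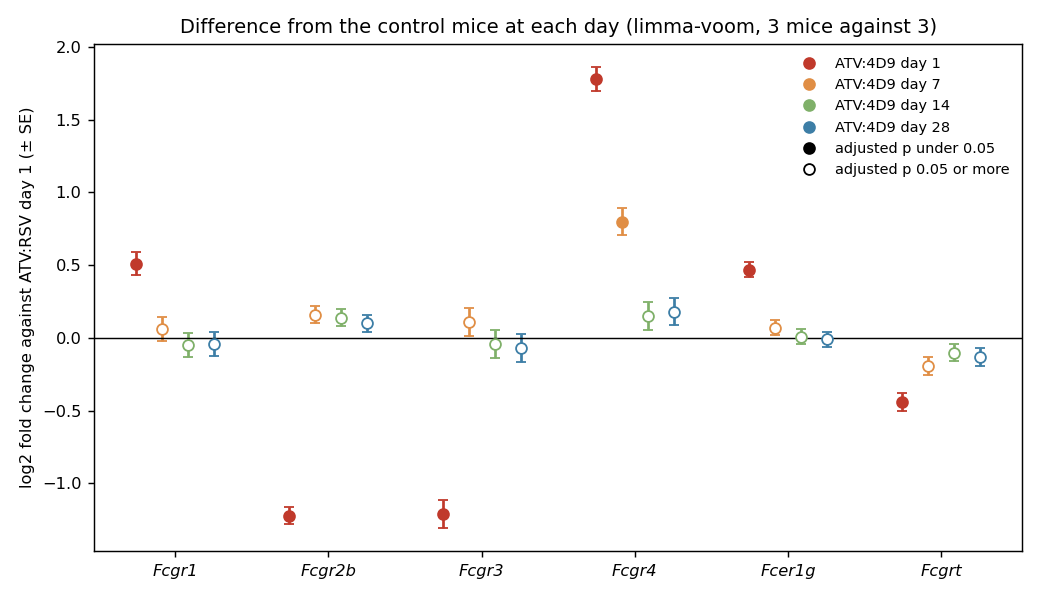
Log2 fold change of each gene against ATV:RSV at day 1 (y axis, bars show the SE of the limma-voom fit) for ATV:4D9 at days 1, 7, 14 and 28, with filled points for an adjusted p under 0.05. All 6 points of day 1 are filled, the Fcgr4 point of day 7 at 0.80 is filled, and none of days 14 and 28.

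The change from day 1 to day 7 was tested directly, since both groups received ATV:4D9. All 6 genes differed between these days, against 66.9% of all genes tested. Fcgr2b was 2.61-fold higher at day 7 (log2 fold change 1.39, SE 0.0608, adjusted p = 1.95e-11) and Fcgr3 2.50-fold higher (1.32, SE 0.0949, adjusted p = 5.48e-09). Fcgr4 was 1.97-fold lower at day 7 than at day 1 (log2 fold change -0.98, SE 0.0742, adjusted p = 1.01e-08). Fcgr1 and Fcer1g differed by -0.45 (SE 0.0806, adjusted p = 0.000142) and -0.40 (SE 0.050, adjusted p = 3.04e-06). Fcgrt differed by 0.25 (SE 0.0622, adjusted p = 0.00213).

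The balance of the receptor transcripts was followed as the UMIs of the 3 activating receptors divided by those of Fcgr2b. The ratio was 9.22, 9.13 and 9.0 in the ATV:RSV mice and 15.5, 13.5 and 16.5 in the ATV:4D9 mice at day 1. No treated mouse at day 1 was near the controls. It was 8.74 ± 0.186 (SD, n = 3) at day 7, 8.04 ± 0.437 at day 14 and 8.14 ± 0.691 at day 28. Each of these 9 mice lay below the same 3 controls, the nearest at 8.95 beside the lowest control at 9.0. Of the 4 receptors, only Fcgr4 at day 7 was called at these days by limma-voom. The ratio of Fcgr3 to Fcgr2b was 6.68 ± 0.0404 in the controls and 6.76 ± 0.729 at day 1. The higher activating ratio at day 1 thus stood beside falls of both Fcgr2b, its denominator, and Fcgr3, and rises of Fcgr1 and Fcgr4. Of the UMIs of the 4 receptors, Fcgr1 made up 23.4% ± 0.624 (SD, n = 3) in the controls and 48.7% ± 0.458 at day 1, Fcgr3 66.1% ± 0.493 and 41.8% ± 0.666, Fcgr2b 9.89% ± 0.106 and 6.22% ± 0.595, and Fcgr4 0.655% ± 0.0290 and 3.30% ± 0.240. These are shares of UMIs, and capture can differ between genes, so they are compared between groups only. No test was planned for them.

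**Figure D3:**
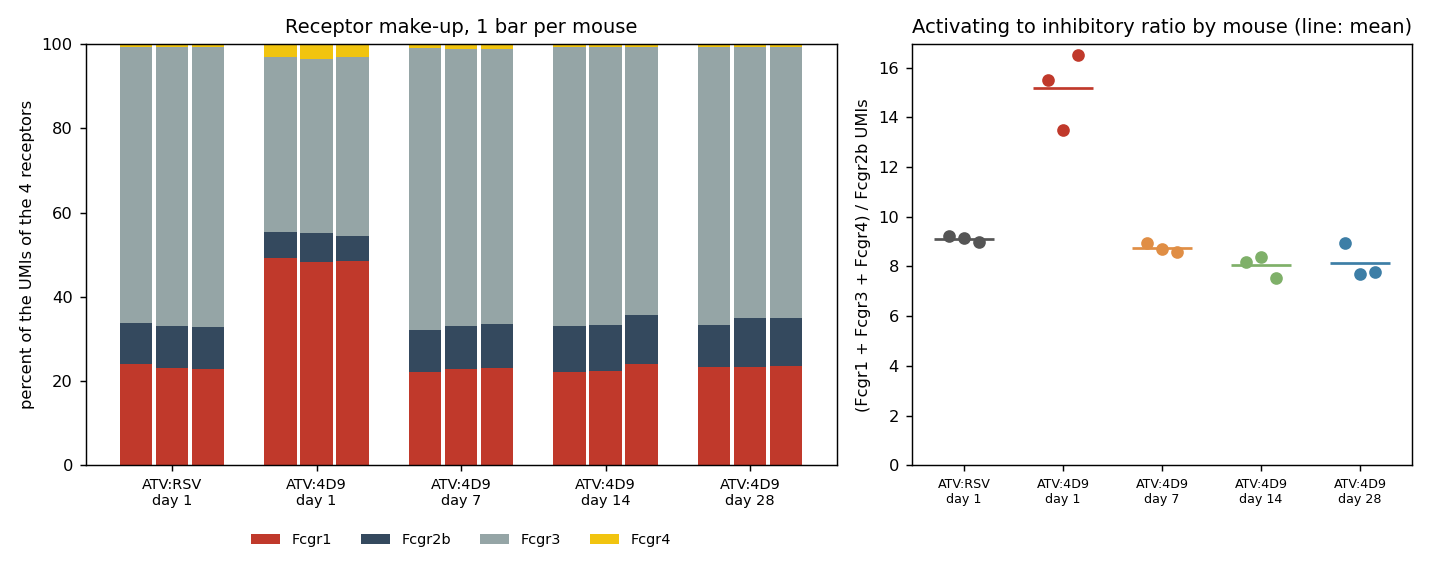
Left, percent of the UMIs of the 4 IgG receptors that each contributed (y axis, 0 to 100), 1 stacked bar per mouse; right, the ratio of Fcgr1, Fcgr3 and Fcgr4 UMIs to Fcgr2b UMIs in each mouse (dots) with the group mean (line). The 3 ATV:4D9 mice at day 1 sit at a ratio of 13.5 to 16.5 and an Fcgr1 share near 48.7%, and the other 12 mice at a ratio of 7.55 to 9.22.

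Levels per cell were compared after each cell was thinned to 3385 UMIs, because the cells of day 1 held more UMIs. A cell held 3.67 ± 0.187 Fcgr3 UMIs (SD, n = 3 mice) in the ATV:RSV mice and 1.42 ± 0.185 in the ATV:4D9 mice at day 1. Cells with no Fcgr3 UMI made up 3.72% and 30.4% of the thinned cells. The share of cells with a Fcgr3 UMI was 95.3% to 96.8% over the controls and 65.2% to 74.1% over the treated mice, while without thinning it was 98.2% ± 0.880 and 90.2% ± 1.77. The groups did not overlap on either scale (exact permutation test of 3 mice against 3, two-sided, p = 0.1, the smallest it can give).

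The share of thinned cells with a Fcgr2b UMI was 38.1% to 42.4% in the ATV:RSV mice and 17% to 19.0% in the ATV:4D9 mice at day 1, and without thinning 56.2% ± 4.32 and 36.8% ± 0.712 (SD, n = 3 mice). The share with a Fcgr4 UMI was 3.17% to 3.83% and 7.88% to 9.02%, and without thinning 5.78% ± 0.574 and 17.9% ± 0.189. At day 7 it was 4.94% to 5.73% after thinning and 8.96% ± 1.11 without, above the controls. At days 14 and 28 the Fcgr4 share overlapped the controls after thinning (3.04% to 3.70% and 3.47% to 4.00%), while without thinning it was 6.29% to 6.74% and 6.67% to 7.10%, above the 5.12% to 6.12% of the controls (exact permutation test, p = 0.1 for each). The share with a Fcgrt UMI was 25.8% to 30.2% in the controls and 19.2% to 19.4% at day 1, while without thinning the groups overlapped (41.6% ± 2.22 and 40.3% ± 2.28). The Fcgrt share after thinning was 21.7% to 25.0% at day 7 and 24.4% to 25.7% at day 14, both below the controls, and 24.7% to 26.4% at day 28, which overlapped them. Without thinning it was 35.7% ± 4.51 at day 7 and 39.6% ± 1.11 at day 14, and both overlapped the controls. The exact permutation p was 0.1 for each difference from the controls without overlap after thinning, the smallest that 3 mice against 3 allow.

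Per cell, Fcgr1 did not separate the groups after thinning. Its share of thinned cells with a UMI was 68.0% to 73.1% in the ATV:RSV mice and 67.6% to 74.9% in the ATV:4D9 mice at day 1 (exact permutation test, p = 0.8), and without thinning 84.2% ± 3.53 and 90.8% ± 1.74 (SD, n = 3 mice). Its mean was 1.30 ± 0.107 and 1.55 ± 0.189 UMIs per thinned cell, with overlapping groups (exact permutation test, p = 0.2). A limma-voom fit with TMM scaling on sums of the thinned cells still called Fcgr1 higher at day 1. Fcer1g was detected in 99.8% of thinned cells in both groups (99.5% and 99.6% without thinning) and rose from 7.93 ± 0.337 to 9.06 ± 0.329 UMIs per thinned cell, with no overlap. No cell type that should lack these genes was deposited as such, so the level that free RNA gives was not measured.

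Within the deposited clusters, Fcgr2b and Fcgr3 fell at day 1 in each of the 3. In cluster 0 the log2 fold changes were -0.44 (SE 0.105, adjusted p = 0.0220) for Fcgr2b and -0.40 (SE 0.0951, adjusted p = 0.0230) for Fcgr3, where 5.09% of genes were called. In cluster 1 they were -0.53 (SE 0.0949, adjusted p = 0.000978) and -0.52 (SE 0.0906, adjusted p = 0.000731), where 9.18% of genes were called. Cluster 2, which held most treated cells of this day, showed the larger differences of -1.35 (SE 0.131, adjusted p = 7.15e-07) and -1.04 (SE 0.123, adjusted p = 4.91e-06), where 36.8% of genes were called. The sizes were not tested between clusters. The clusters were made from the expression of the same cells, and clusters 0 and 1 held 180 to 555 cells of each treated mouse at day 1.

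The genes that rose over all cells were called in fewer clusters at day 1. Fcgr4 rose in cluster 0 at day 1 (log2 fold change 0.66, SE 0.166, adjusted p = 0.0293), while its values in cluster 1 (0.52, SE 0.244, adjusted p = 0.224) and cluster 2 (0.22, SE 0.268, adjusted p = 0.543) were not called. Its level in the cluster 2 cells was 14.6 to 40.3 CPM over the ATV:RSV mice, from 10 to 62 UMIs in 76 to 165 cells, and 30.2 to 33.8 CPM over the ATV:4D9 mice at day 1. In cluster 0 it was 9.53 to 9.71 CPM and 13.1 to 16.6 CPM, the latter from 13 to 34 UMIs in 211 to 383 cells. Control cells of cluster 2 thus spread around the level of the treated cells, and these CPM are scaled to the total of each cluster. Fcgr1 was not called in any cluster at day 1, with log2 fold changes of -0.03, -0.03 and 0.10 in clusters 0, 1 and 2. Fcer1g was called in cluster 2 alone (0.21, SE 0.0595, adjusted p = 0.00985), and Fcgrt in none.

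At day 7 Fcgr4 rose in cluster 0 (log2 fold change 0.77, SE 0.0774, adjusted p = 1.65e-05) and in cluster 1 (0.72, SE 0.137, adjusted p = 0.00217), where 4.28% and 5.76% of genes were called. Its value in cluster 2 was 0.86 (SE 0.298, adjusted p = 0.271), from 120 to 245 cells per treated mouse, and 0.693% of genes were called there. Fcgrt fell in cluster 0 (-0.21, SE 0.0582, adjusted p = 0.0484). The other member values at day 7 were not called in any cluster.

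**Figure D4:**
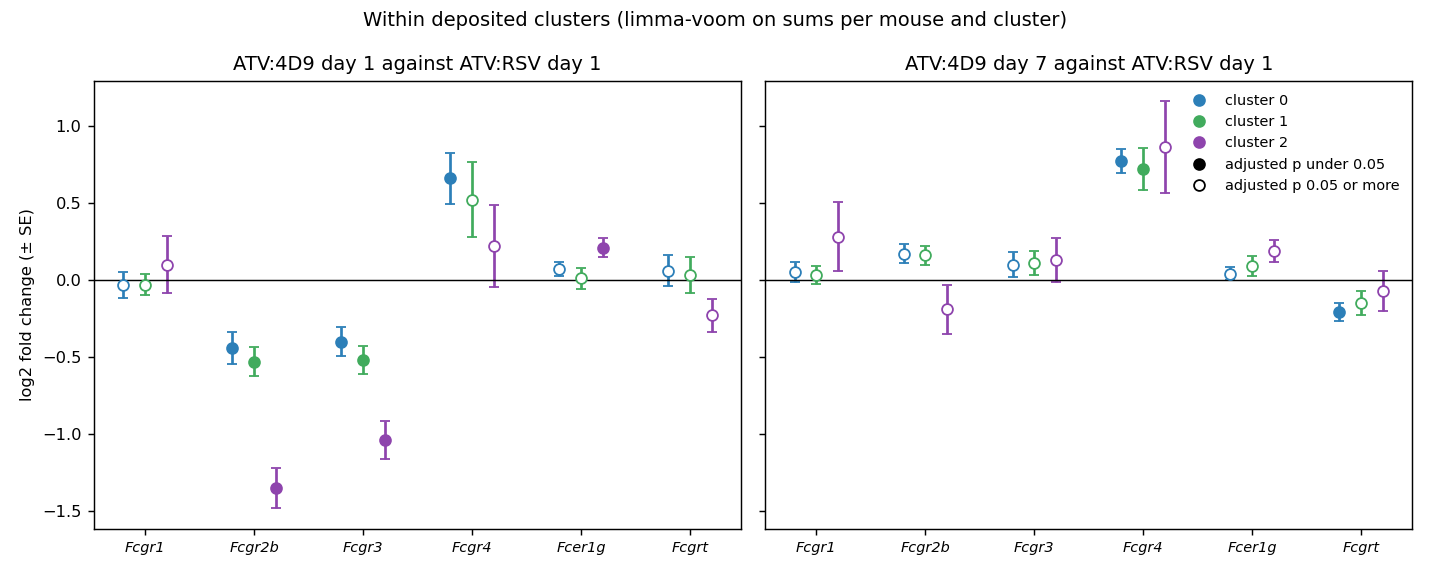
Log2 fold change against ATV:RSV at day 1 (y axis, bars show the SE) of each gene within deposited clusters 0, 1 and 2 at day 1 (left) and day 7 (right) of ATV:4D9, with filled points for an adjusted p under 0.05. Fcgr2b and Fcgr3 are filled and below 0 in all 3 clusters at day 1, with cluster 2 lowest, and Fcgr4 is near 0.8 in all 3 clusters at day 7 but filled in clusters 0 and 1.

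Fcgr1 and Fcgr4 are known to respond to interferon, so cells with 2 or more UMIs of Isg15, an interferon-stimulated gene, were set beside the other cells of the same mice after thinning. This split was chosen after the values of the 6 genes had been seen and is given without a test. In the 12 mice outside day 1 of ATV:4D9 there were 542 such cells beside 71815 others, with 24 to 95 per mouse, and 297 of them were in cluster 2. These made up 21.7% of the cluster 2 cells of these mice, against 0.443% in cluster 0 and 0.162% in cluster 1. Their part in the cluster 2 levels of the ATV:RSV mice was not tested. Cells with 2 or more Isg15 UMIs held 3.05 ± 0.530 Fcgr1 UMIs per cell (SD over 12 mice) against 1.24 ± 0.0649 in the other cells, higher in 12 of 12 mice. For Fcgr4 the values were 0.204 ± 0.122 and 0.0410 ± 0.00826, higher in 12 of 12 mice. The Fcgr4 values rest on few UMIs per mouse, and ranged from 0.0698 in 43 cells to 0.510 in 49 cells. Fcer1g was higher in 11 of 12 mice (8.55 ± 0.729 against 7.76 ± 0.277). Fcgr2b showed no common direction (0.578 ± 0.0832 against 0.566 ± 0.0303, higher in 5 of 12 mice), and Fcgr3 was lower in 11 of 12 mice (3.24 ± 0.246 against 3.56 ± 0.237).

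At day 1 of ATV:4D9 these cells made up 16.6% ± 1.55 of the thinned cells (SD, n = 3), against 0.692% ± 0.278 in the ATV:RSV mice. Cells with 2 or more Isg15 UMIs held 2.86 ± 0.256 Fcgr1 UMIs and the other cells of these mice 1.29 ± 0.170. For Fcgr4 the values were 0.268 ± 0.0295 and 0.0674 ± 0.00579. Fcgr3 was 1.00 ± 0.144 in the first and 1.51 ± 0.197 in the other cells, and Fcgr2b 0.176 ± 0.0122 and 0.218 ± 0.0141. Both were thus low in either kind of cell beside the level in the ATV:RSV mice (3.67 for Fcgr3 and 0.545 for Fcgr2b). The ATV:RSV level was 1.30 ± 0.107 for Fcgr1 and 0.0368 ± 0.00400 for Fcgr4. The other cells of the treated mice were near that level for Fcgr1 and above it for Fcgr4. These thinned values lack the TMM scaling under which the log2 fold change of Fcgr1 over all cells was 0.51. Whether the rise of Fcgr1 lay in the cells with 2 or more Isg15 UMIs alone was not tested. In the treated cells with a UMI of Mki67 or Top2a, which are expressed in dividing cells, Fcgr1, Fcgr2b, Fcgr3, Fcgr4 and Fcer1g were all lower than in the other treated cells in 3 of 3 mice, with 1.19 ± 0.153 and 1.47 ± 0.191 UMIs for Fcgr3.

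**Figure D5:**
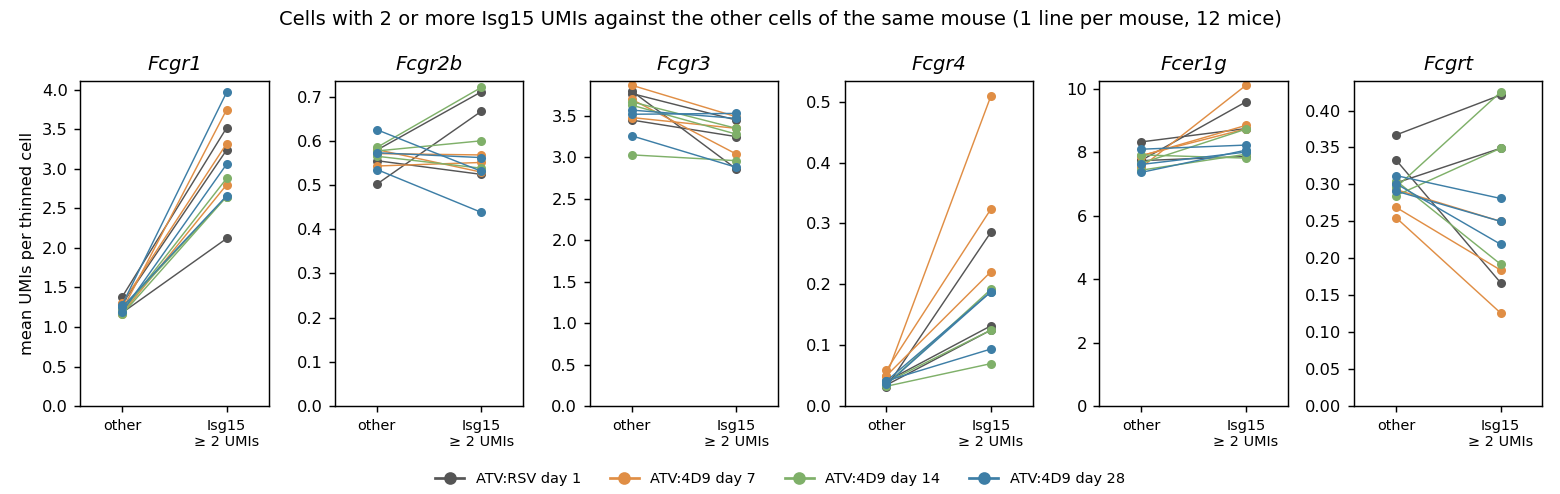
Mean UMIs per thinned cell (y axis, from 0 in each panel) in cells with 2 or more Isg15 UMIs and in the other cells of the same mouse, 1 line for each of the 12 mice outside day 1 of ATV:4D9. The lines rise in all 12 mice for Fcgr1 and Fcgr4, fall in 11 for Fcgr3 and go either way for Fcgr2b and Fcgrt.

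Other cell types express Fc receptors too, so their markers were read beside these results. Cells with 3 or more markers of another type numbered 74 to 84 per ATV:4D9 mouse at day 1 and 26 to 39 per ATV:RSV mouse. Without them the log2 fold changes at day 1 were 1.78 for Fcgr4, 0.51 for Fcgr1, -1.23 for Fcgr2b and -1.21 for Fcgr3, all still called. All 4 monocyte markers were detected in every mouse, with a summed level of 4.33 to 11.3 CPM in the ATV:RSV mice and 13.8 to 17.9 CPM in the ATV:4D9 mice at day 1. Of these, Plac8 was at 0.898 to 2.22 and 11.8 to 15 CPM, while Ccr2 was at 3.28 to 8.40 and 1.28 to 2.01 CPM. Only 2 cells in all met the rule for monocytes, so leaving out marked cells does not bear on these markers, and the part of monocytes in the levels of Fcgr1 and Fcgr4 was not tested. Cells with 3 or more border-associated macrophage markers held 0.292 ± 0.0797 Fcgr2b UMIs per thinned cell at day 1 of ATV:4D9 (SD, n = 3 mice), against 0.587 ± 0.0119 in the ATV:RSV mice. These values come from 208 and 65 cells, and since cells of day 1 held more UMIs, the cells that meet the marker rule may not be alike in the 2 groups.

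Of the other receptors for immunoglobulins and of genes related to them, among them the Fc receptor-like genes, few were expressed. Of 13 genes listed, 3 passed the filter and 2 fell at day 1, close to the 69.2% of all genes called, with a median log2 fold change of -0.21 over the 3 beside -0.05 over all genes. Fcrl1, an Fc receptor-like gene better known from B cells, fell from 30.8 ± 2.24 to 4.86 ± 0.702 CPM (log2 fold change -2.67, SE 0.122, adjusted p = 2.69e-11). Fcrls, a receptor-like gene typical of microglia, fell by 0.21 (SE 0.0650, adjusted p = 0.00839) at day 1 and by 0.25 (SE 0.0653, adjusted p = 0.0405) at day 7. The third, Trim21, which binds antibody in the cytosol, had a log2 fold change of -0.11 (SE 0.0987, adjusted p = 0.344) at day 1.

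Of the partners of the receptors, 4 genes were tested, of which B2m and Tyrobp rose at day 1 and 2 were not called, with a median of 0.32. Over all genes 69.2% were called, and with 4 genes the shares were not compared. B2m, the partner of the Fcgrt protein and of MHC class I, rose from 1309 ± 155 to 2108 ± 209 CPM (log2 fold change 0.69, SE 0.0741, adjusted p = 5.36e-07) while Fcgrt fell, and it was still higher at day 7 (0.53, SE 0.0744, adjusted p = 0.000373). Tyrobp, the adaptor through which TREM2 signals, rose by 0.37 (SE 0.0467, adjusted p = 3.28e-06). Of 5 other receptors known to use the Fcer1g chain, 2 passed the filter and both rose at day 1, with a median of 0.80, where 4942 of all 14260 genes rose. These were Lilra5 (0.35, SE 0.137, adjusted p = 0.0327) and Clec4n, which encodes Dectin-2 and was at 0.718 ± 0.214 CPM against 0.294 ± 0.144 (1.26, SE 0.362, adjusted p = 0.00584).

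Genes that carry the activating signal moved both ways. Of 21 tested, 6 rose, 11 fell and 4 were not called at day 1, beside 69.2% called over all genes, and the median log2 fold change was -0.13. Fgr, a Src-family kinase, rose from 1.74 ± 0.145 to 7.27 ± 0.318 CPM (log2 fold change 2.07, SE 0.126, adjusted p = 7.22e-10). It was still higher at day 7 (1.03, SE 0.143, adjusted p = 0.000326). No other gene of the list was called at day 7, when 3.98% of all genes were called. Lat2, an adaptor, rose by 1.32 (SE 0.0976, adjusted p = 6.87e-09). Syk, the kinase that binds the Fcer1g motif, fell from 82.7 ± 7.78 to 42.8 ± 1.69 CPM (-0.95, SE 0.0903, adjusted p = 1.35e-07), and Pik3cd, a catalytic subunit of PI3-kinase, fell by 0.84 (SE 0.0711, adjusted p = 3.04e-08).

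Genes that carry the inhibitory signal also moved both ways. Of 10 tested, 3 rose, 6 fell and 1 was not called at day 1, against the same 69.2% over all genes, with a median of -0.48 beside -0.05. Dok2, an adaptor, rose from 0.351 ± 0.0822 to 5.89 ± 1.95 CPM (log2 fold change 3.95, SE 0.388, adjusted p = 1.92e-07), and Ptpn6, the phosphatase SHP-1, rose by 0.45 (SE 0.0698, adjusted p = 2.74e-05). Dok3, a related adaptor, fell from 28.1 ± 1.07 to 10.4 ± 0.819 CPM (-1.43, SE 0.0705, adjusted p = 5.84e-11) and was still lower at day 7 (-0.49, SE 0.0672, adjusted p = 0.000319). Cbl, a ubiquitin ligase, fell by 0.74 (SE 0.0970, adjusted p = 5.03e-06). No gene of these 5 lists was called at day 14 or day 28 by limma-voom.

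The genes whose levels followed each member most closely over the 15 mice were found among 12327 genes by Pearson's r of the log2 CPM, with no test. The 3 ATV:4D9 mice of day 1 stand apart and can set much of each r, and r without them was not computed. Nearest to Fcgr4 were Itgax (r = 0.983), Tlr2 (0.983) and Cd63 (0.982). All 3 were called higher at day 7, with log2 fold changes of 1.41, 0.66 and 0.50, where 3.98% of all genes were called. They were chosen on mice that include those of day 7, where Fcgr4 was higher, so their rise there is not a separate result. Nearest to Fcgr2b were Cdkn1c (0.993), Cyp27a1 (0.991) and Adgrg1 (0.990), and nearest to Fcgr3 were Clec4a3 (0.987), Tprgl (0.987) and Ypel3 (0.987). Nearest to Fcgr1 were Sar1a (0.971), Rce1 (0.968) and Tspan31 (0.967), nearest to Fcer1g Mrps33 (0.990), Gtf3a (0.989) and Tmsb4x (0.989), and nearest to Fcgrt Frg2f1 (0.959), Flot1 (0.956) and Efl1 (0.947).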

How the data were processed

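The labels list Cell Ranger 4.0.0, while the study's methods name later versions, so the version used is uncertain. The methods give mm10 and Seurat clustering. What the authors deposited is a matrix of raw UMI counts by gene and cell. A deposited cell table gives each cell's total counts, mitochondrial percent, mouse and cluster number. Filters on cells, doublet removal and the use of strand in counting are not given in the sources used here. All deposited cells were used and no doublet caller was run. A further control animal that the labels mention was not analysed here. The members and gene lists were chosen with earlier results of these data known.

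Counts were summed per mouse (32341960 to 70307384 UMIs), filtered with filterByExpr (minimum count 10, minimum total count 15) and scaled by TMM. The test was limma-voom with 1 mean per group, fitted to the 15 mice together, with calls at a Benjamini-Hochberg adjusted p under 0.05. Versions were limma 3.58.1, edgeR 4.0.16 and R 4.3.3. Each deposited cluster was tested likewise on its own sums. CPM are on the TMM scale, except within clusters and for cell type markers, where library size alone was used. Values with ± are means and SDs. Each mouse is 1 library, and p-values measure the spread between mice. For values per cell, 3385 UMIs were drawn at random from each cell (percentile 10 of the UMIs per cell). Shallower cells were left out, namely 2584 ATV:RSV cells and, of the ATV:4D9 cells, 977 at day 1, 2532 at day 7, 2201 at day 14 and 1910 at day 28. Shares of cells were tested by exact two-sided permutation (scipy 1.17.1).

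Beside the members, the text names from each list the 2 highest and 2 lowest genes called at day 1 and up to 3 called later, and the 3 genes nearest to each member by Pearson's r, without symbols of predicted genes. Trim21, Isg15, Mki67, Top2a, Plac8 and Ccr2 were added after their values were seen. Positions are 1-based, from GENCODE M21. The fit was tested on simulated counts with known changes in few genes. Most genes were called at day 1, so that test does not bear on the scaling there. No libraries of a group were copies. Every batch holds all 5 conditions per the labels, so the batch pairs the mice. The deviations of 2 mice from their groups had a mean r of 0.0539 within a batch (30 pairs) and of -0.0267 between batches (60 pairs). Alternatives were edgeR's quasi-likelihood test, DESeq2 1.42.0, other scalings and filters, batch as a block, only the 2 groups compared, other choices of cells, and leaving out each mouse.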

Additional observations from a re-analysis of the deposited data

Results flagged for a closer look

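The levels of all 6 genes differed between day 1 and day 7 of ATV:4D9, in the limma-voom contrast of the 2 days. In this contrast 66.9% of all genes tested were called. Day 7 lacked a same-day control, so a change in the effect of ATV:4D9 cannot be told apart from other differences between the days. The log2 difference of day 7 minus day 1 was 1.39 for Fcgr2b, 1.32 for Fcgr3 and 0.25 for Fcgrt, and -0.98 for Fcgr4, -0.45 for Fcgr1 and -0.40 for Fcer1g. Each gene was nearer to the ATV:RSV level at day 7 than at day 1. Fcgr2b and Fcgr3, lower at day 1, were at log2 fold changes of 0.16 and 0.11 against ATV:RSV at day 7. Neither was called, and Fcgr2b lay above all 3 controls.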

How the results depend on the processing

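At day 1, and between day 7 and day 1, each of the 6 genes kept its direction and its call in the 25 alternatives run, and so did Fcgr4 at day 7 (log2 fold change 0.70 to 0.85). With library size alone, Fcgrt at day 7 was called (-0.28, adjusted p = 0.0159), which made 2 members, and values near 0 changed sign, to -0.03 for Fcgr1 and -0.02 for Fcer1g at day 7 and -0.04 for Fcer1g at day 14. That scaling called 1199 genes at day 7 (317 higher and 882 lower, against 426 and 142) and 19 at day 14, and DESeq2 called 871, 132 and 14 genes at days 7, 14 and 28. Fitting only the 2 groups compared called 0 at day 14. The causes were not tested.

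With batch as a replicate block Fcgrt at day 7 was called (-0.19, adjusted p = 0.0246), again making 2 members, and no other member's call changed. Genes called numbered 1014 for day 7, 122 for day 14 and 2 for day 28 with the block, and 568, 57 and 0 without it.

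Leaving out 1 mouse in turn gave -0.25 to -0.13 for Fcgrt at day 7, called without ATV:RSV replicate 1 (2 members, otherwise 1). It gave 331 genes at day 7 (without ATV:RSV replicate 2; 334 without day 7 replicate 3) to 611, and at day 14 from 0 (day 14 replicate 1 left out) to 59, with 16 when ATV:RSV replicate 3 and 30 when day 14 replicate 2 was left out. Uncalled values near 0 changed sign, within -0.11 to 0.00 for Fcgr1, -0.08 to 0.06 for Fcgr3 and -0.01 to 0.05 for Fcer1g at day 14, and -0.10 to 0.01 for Fcgr1 and -0.06 to 0.03 for Fcer1g at day 28.

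The difference in the percent of cells with a UMI at day 1 depended on thinning. Without thinning it was 6.64 points for Fcgr1, -19.4 for Fcgr2b, -8.03 for Fcgr3, 12.1 for Fcgr4, 0.114 for Fcer1g and -1.35 for Fcgrt. With 2 or more UMIs required it was 4.44 for Fcgr1 (1.28 with 1 UMI), -8.40 for Fcgr2b, -46.3 for Fcgr3, 1.00 for Fcgr4, 0.130 for Fcer1g and -2.57 for Fcgrt. Fcgr4 counts were small in each cluster. Cluster 2 held 10 to 62 UMIs per control mouse. Per ATV:4D9 mouse at day 1, cluster 0 held 13 to 34 and cluster 1 held 9 to 34. The part of depth in these values was not tested.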
